A study of Homo sapiens with 3 samples.

Results

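DMRT1 peaks next to potassium channel genes were examined in DZ+PGCLCs at day 8, that is, primordial germ cell-like cells that express the germ cell protein DAZL. Every peak of the deposited list whose nearest gene was protein-coding and had a symbol starting with KCN was taken, which gave 38 KCN peaks among 5167 peaks next to protein-coding genes and 7818 peaks in all. The 38 peaks were assigned to 22 of the 96 protein-coding KCN genes, and the other 74 KCN genes had no nearest peak. No measured height or score entered this choice, because the list holds none.

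Binding was measured by CUT&RUN, which sequences DNA cut loose by a nuclease tethered to an antibody on chromatin, in 2 libraries with an antibody to DMRT1 and 1 library with rabbit IgG. All 3 libraries came from WIS2, an established human embryonic stem cell line, carried to DZ+PGCLCs. By the paper's description, DZ+PGCLCs came from a line with a tdTomato reporter at DAZL, by which DAZL-positive cells were recognised. Their induction used BMP2, SCF and EGF, followed by retinoic acid, Activin A, SCF and EGF. The cells of both groups carried a DMRT1 transgene switched on by doxycycline and SOX17 joined to the glucocorticoid receptor and activated by dexamethasone, and no library without these transgenes was analysed, so endogenous and transgenic DMRT1 cannot be told apart. The data are 1 list of peaks common to both DMRT1 libraries, with IgG as control in peak calling, so no value has a spread between replicates and the depth of each library is unknown. The peak, a stretch called as bound, is therefore the unit of every count below. The study also sequenced RNA of day 8 DZ+PGCLCs, but no level of a channel transcript was read here, and no current was measured.

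Potassium channels are membrane proteins that let potassium ions leave or enter a cell down their gradient and so set its resting potential and excitability. Pore-forming subunits fall into voltage-gated (Kv), EAG, KCNQ, inward rectifier, tandem-pore domain and calcium- or sodium-activated channels, and auxiliary subunits bind to pores and alter their gating or their traffic to the membrane; the soluble regulator KCNRG was counted with them. They are best known from nerve, muscle and heart, and KCNU1 encodes a channel of sperm. DMRT1 is a DM domain transcription factor of gonads and germ cells.

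DMRT1 peaks were read for the 7-letter DMRT1 core, ACAATGT or ACATTGT, which are the same site on opposite strands. Of the 38 KCN peaks, 9 held at least 1 core, at 12 sites next to 8 genes. The whole sequences of 3 of these peaks are shown, from the hg38 genome on the plus strand, because each placed a core within 50 bp of its centre and fits on 1 line. Capitals mark the core, or in KCNK10 also a string described further on.
KCNS1, peak 2, chr20:45041749-45041905: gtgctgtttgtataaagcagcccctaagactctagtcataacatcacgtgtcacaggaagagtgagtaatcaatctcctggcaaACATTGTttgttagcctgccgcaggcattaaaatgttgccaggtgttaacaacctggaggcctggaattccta
KCNN2, peak 1, chr5:114235598-114235757: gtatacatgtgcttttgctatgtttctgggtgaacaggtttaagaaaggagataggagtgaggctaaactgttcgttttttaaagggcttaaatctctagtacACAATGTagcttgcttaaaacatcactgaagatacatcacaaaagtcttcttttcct
KCNK10, chr14:88150389-88150579: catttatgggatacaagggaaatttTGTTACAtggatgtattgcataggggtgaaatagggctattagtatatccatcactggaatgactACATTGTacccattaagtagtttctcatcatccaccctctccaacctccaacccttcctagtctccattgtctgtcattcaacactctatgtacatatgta
A further 6 cores are shown with 12 bases on each side, to let their neighbouring bases be compared. The coordinates are those of the 7 capital letters.
KCNS1, peak 1, chr20:45036055-45036061: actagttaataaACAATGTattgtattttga
KCNS1, peak 1, chr20:45036175-45036181: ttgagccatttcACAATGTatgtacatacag
KCNJ3, peak 3, chr2:154813780-154813786: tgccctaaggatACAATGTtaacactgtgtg
KCNJ3, peak 3, chr2:154814042-154814048: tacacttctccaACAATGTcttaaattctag
KCNAB1, chr3:156338032-156338038: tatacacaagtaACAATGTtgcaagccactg
KCNIP4, peak 3, chr4:21334882-21334888: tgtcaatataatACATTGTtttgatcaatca

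A second string holds the same half-sites, TGT and ACA, in the reverse order, as TGTAACA or TGTTACA, again 1 site on opposite strands. This inverted pair was found in 12 of the 38 KCN peaks, at 17 sites next to 10 genes. The peaks with more than 1 copy belonged to KCNE1, KCNN2 and KCNA3, and are shown for that reason, as a whole peak for KCNE1 and with 12 bases on each side for the others. Capitals mark the inverted pair.
KCNE1, chr21:34500263-34500444: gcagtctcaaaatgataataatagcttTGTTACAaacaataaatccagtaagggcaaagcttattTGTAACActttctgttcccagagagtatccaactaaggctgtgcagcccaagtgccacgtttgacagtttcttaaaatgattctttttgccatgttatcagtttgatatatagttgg
KCNN2, peak 4, chr5:114436212-114436218: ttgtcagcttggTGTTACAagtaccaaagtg
KCNN2, peak 4, chr5:114436289-114436295: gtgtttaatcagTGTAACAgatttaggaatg
KCNN2, peak 4, chr5:114436333-114436339: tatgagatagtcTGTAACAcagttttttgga
KCNA3, chr1:110657472-110657478: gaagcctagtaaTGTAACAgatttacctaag
KCNA3, chr1:110657748-110657754: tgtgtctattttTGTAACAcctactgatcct
KCNA3, chr1:110657797-110657803: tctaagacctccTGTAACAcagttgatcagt
The longest word shared by the KCNA3 peak and this KCNN2 peak was 13 bp, and by any 2 KCN peaks 14 bp.

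How many KCN genes had a peak was compared with the same count over 19138 protein-coding genes. At least 1 nearest peak was given to 22 of 96 KCN genes (22.9%, exact 95% interval 15.0 to 32.6), against 17.2% of protein-coding genes. At least 2 peaks were given to 8 of 96 KCN genes (8.33%, interval 3.67 to 15.8), against 5.26% of protein-coding genes. The share of all genes lay inside the interval of the KCN genes in both counts. Of the 22 KCN genes, 14 had 1 peak, 4 had 2, and KCNJ3 (6), KCNN2 (4), KCNIP4 (3) and KCNMB4 (3) had more. The 8 genes with at least 2 peaks took 24 of the 38 peaks, a share that was not counted over all genes. Peaks next to 1 gene are not independent draws. The intervals, over genes here and over peaks below, cover counting error only.

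Gene length moved with these counts. Among KCN genes, those with a peak had a median body of 149 kb in GENCODE and those without had 27.3 kb; among all protein-coding genes the medians were 81.0 and 22.7 kb. A body of at least 100 kb was found for 34 of 96 KCN genes (35.4%), against 18.3% of protein-coding genes. Within that long class, 14 of 34 KCN genes (41.2%, interval 24.6 to 59.3) had a peak, against 41.2% of protein-coding genes. Under 100 kb, 8 of 62 KCN genes (12.9%, interval 5.74 to 23.9) had a peak, against 11.9% of protein-coding genes. In both length classes the share of all genes lay inside the KCN interval.

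**Figure D1:**
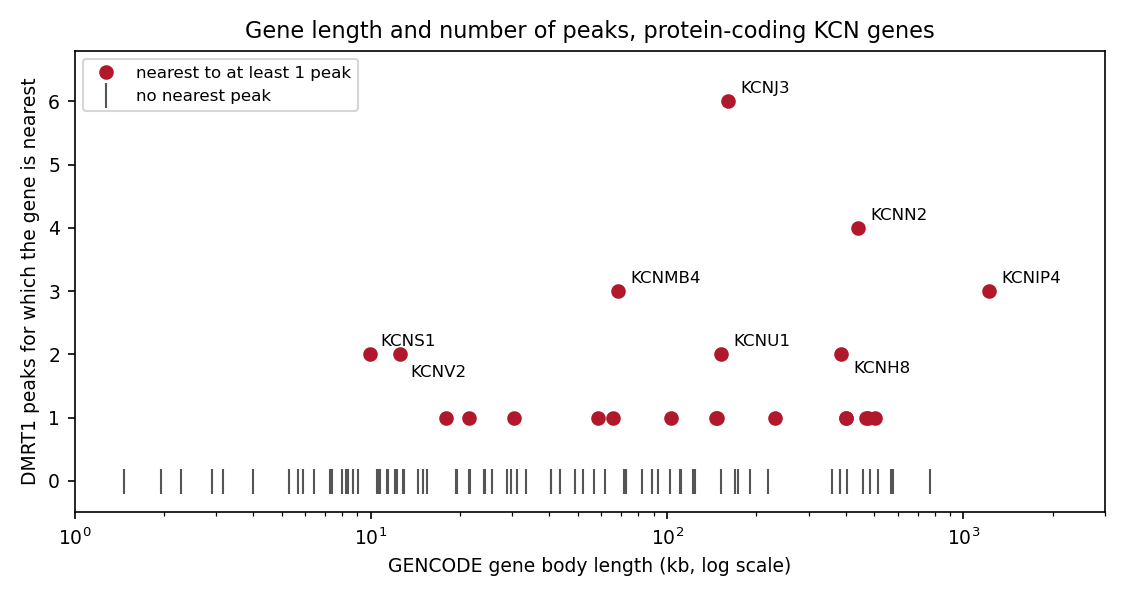
Number of DMRT1 peaks for which each of the 96 protein-coding KCN genes is nearest, against the length of its gene body in kb on a log axis. Filled points are the 22 genes with a peak, of which the 8 with at least 2 are named, and ticks at 0 are the 74 genes without; genes with a peak had a median of 149 kb and genes without one of 27.3 kb, and both kinds occur among short and long genes.

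The genes with a peak were counted in each class of channel, beside the 17.2% of all protein-coding genes (41.2% of those of at least 100 kb and 11.9% of shorter ones). Auxiliary subunits had a peak at 7 of 17 genes (41.2%) and the EAG family at 3 of 8 (37.5%), whereas inward rectifiers had one at 1 of 16 (6.25%) and KCNQ channels at 0 of 5. Kv pore subunits had a peak at 5 of 27 genes (18.5%), tandem-pore domain channels at 4 of 15 (26.7%) and calcium- or sodium-activated channels at 2 of 8 (25%). The classes are small and differ in length, with median bodies of 65.5 kb for auxiliary subunits, 210 kb for the EAG family, 29.3 kb for inward rectifiers and 360 kb for KCNQ channels. By the gene body that holds a peak centre, found for 13.9% of all protein-coding genes, the order of the classes changed. Such a body was found for 4 of 17 auxiliary subunits, 3 of 8 in the EAG family, 2 of 27 Kv pore subunits and 1 of 5 KCNQ channels. It was found for 1 of 16 inward rectifiers, 2 of 8 calcium- or sodium-activated channels and 0 of 15 tandem-pore domain channels. The difference between classes was not tested.

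**Figure D2:**
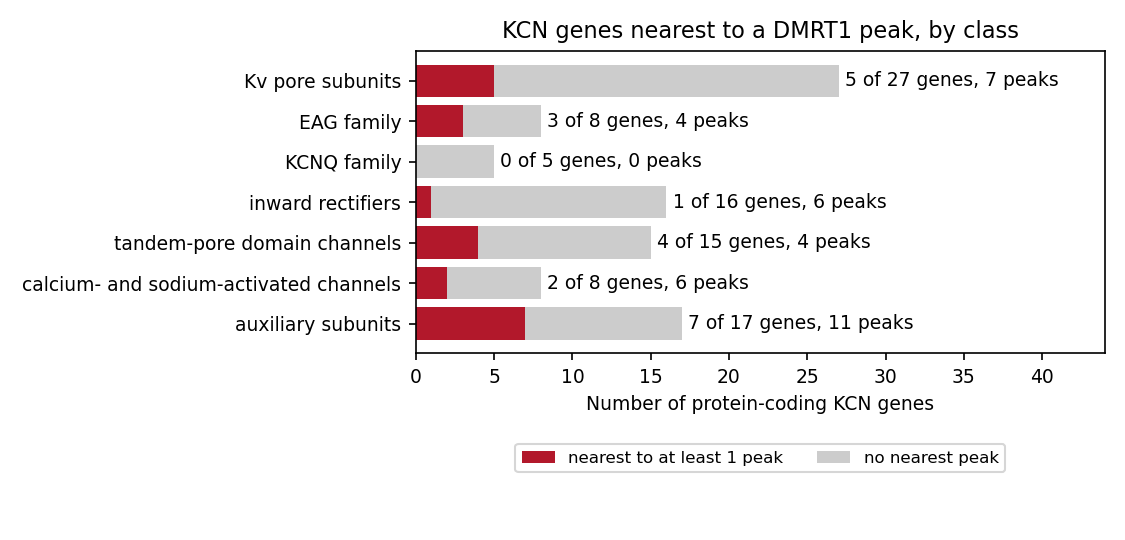
Protein-coding KCN genes by class of channel; the bar is the number of genes, its red part those nearest to at least 1 DMRT1 peak, and the text beside it gives the counts. Auxiliary subunits held the most genes with a peak (7 of 17) and the most peaks (11), while the 6 peaks of the inward rectifiers belonged to 1 gene.

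Among Kv pore subunits, whose channels open on depolarisation, 7 peaks were next to 5 genes. KCNS1 encodes a silent subunit that gives no current alone and modifies partner Kv subunits. Its 2 peaks, of 503 and 157 bp, lay 65.0 and 59.3 kb downstream of its transcription start site (TSS) at chr20:45035914-45036416 and chr20:45041749-45041905, and 5.33 kb apart. Both held the core, 3 sites in all, yet both were in intron 10 of 10 of STK4, a kinase of the Hippo pathway, and 55.05 and 49.4 kb beyond the KCNS1 body. The wider peak overlapped an L1MA8 LINE element, and the narrower had the highest GC content of the KCN peaks (45.2%).

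KCNV2, another silent subunit, known from photoreceptors, had peaks of 231 and 211 bp at chr9:2746390-2746620 and chr9:2772950-2773160. They were annotated as intergenic, 29.0 and 55.5 kb downstream of the TSS, but both lay in the GENCODE body of PUM3. The peak nearer to the TSS held 1 inverted pair, and the farther overlapped an L3 element and held neither string.

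KCNA3 encodes a Kv channel of T lymphocytes. Its peak at chr1:110657421-110658247 was the widest of the KCN peaks (827 bp) and was assigned to exon 3 of 3 of a non-coding KCNA3 transcript, 13.9 kb downstream of the TSS. It was the 1 KCN peak that the authors' annotation placed in an exon, and it held 3 inverted pairs and no core. KCNB2, a delayed rectifier, had a 506 bp peak 114 kb upstream of its TSS at chr8:72423190-72423695, with 2 cores and 1 inverted pair. KCND2, the pore of a rapidly inactivating current of neurons, had a 283 bp peak in intron 1 of 5, 255 kb downstream of its TSS, with neither string. KCN genes of this class without a peak included KCNS3, with a body of 484 kb, and KCND3, with 219 kb.

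The EAG family had 4 peaks next to 3 genes and none held the core. KCNH5 had a 348 bp peak with 1 inverted pair at chr14:63048393-63048740, 3.11 kb upstream of the TSS used by the authors. It was annotated as intergenic but lay inside the longer GENCODE body. KCNH8 had peaks of 124 and 396 bp at chr3:18987561-18987684 and chr3:19053625-19054020, 161 and 94.7 kb upstream of its start and outside the body of any protein-coding gene. KCNH7 had a 144 bp peak 124 kb upstream. The 124 bp peak of KCNH8 was the narrowest and had the lowest GC content of the KCN peaks (30.6%). KCNH2, which encodes the hERG channel of cardiac repolarisation (33.4 kb), and KCNH1 (457 kb) had no nearest peak.

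KCNJ3, a subunit of the G protein-gated inward rectifier of heart and brain, had the most peaks of the family and was the 1 inward rectifier with any. Its 6 peaks spanned 406 kb. The first, chr2:154686843-154687058, lay 11.6 kb upstream of the TSS, and the second, chr2:154708221-154708447, 9.64 kb downstream in intron 1 of 1 of the transcript used. A KCNJ3 start site in GENCODE was nearer to this second peak, which lay at -998 bp from it. The third, chr2:154813709-154814249, was the widest of the 6 (541 bp) and held both KCNJ3 cores, in intron 2 of 2 and 115 kb from the TSS.

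The last 3 KCNJ3 peaks formed a group beyond the gene, 182, 195 and 234 kb past the end of its body, at chr2:155039888-155040108, chr2:155053528-155053812 and chr2:155092704-155092967. The first and second of this group each held 1 inverted pair, and the last held neither string. Only 2 of the 6 peaks were thus inside the KCNJ3 body, of 160.5 kb. The other members of the class, among them KCNJ6 with a body of 514 kb and KCNJ15 with 152 kb, had no peak.

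Tandem-pore domain channels carry background potassium currents. They had 4 peaks next to 4 genes, all intergenic, all in LINE elements and none inside the body of a KCN gene. KCNK10, a channel opened by stretch and lipids, had a 191 bp peak at chr14:88150389-88150579, 120 kb downstream of its TSS and 29.6 kb past its body, in an L1PB4 element. Its core was 2 bp from the peak centre and its inverted pair 67 bp away. KCNK9, an acid-sensitive channel, had a 213 bp peak with 1 core at chr8:139451691-139451903, 251 kb downstream of the TSS and 149 kb past its body.

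KCNK2, a relative of KCNK10, had a 202 bp peak 227 kb downstream of the TSS, and KCNK1 a 226 bp peak 123 kb upstream of it. Neither peak held the core or the inverted pair. KCNK13 (124 kb) and KCNK12 (61.7 kb) had no peak.

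Calcium- and sodium-activated channels had 6 peaks next to 2 genes. KCNN2, a small-conductance channel opened by calcium through calmodulin, had 4 peaks over 201 kb, all inside its GENCODE body of 441 kb. The first, chr5:114235598-114235757, held 1 core 27 bp from its centre. It was annotated as intergenic, 126 kb upstream of the TSS used. The second, chr5:114390406-114390658, in intron 2 of 6, held neither string.

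KCNN2 peaks 3 and 4 lay 6.03 kb apart on either side of a start site of a shorter transcript. Peak 3, chr5:114429953-114430110, was 3.48 kb upstream of it in an L1MC3 element and held 1 inverted pair. Peak 4, chr5:114436143-114436700, was 2.91 kb downstream and held 3 inverted pairs in 558 bp. Its distance was the smallest of the KCN peaks by the start sites the authors assigned. These were 2 of the 4 KCN peaks within 10 kb of a TSS, with those of KCNH5 and KCNJ3.

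KCNU1, the channel of sperm, had the peak farthest from a TSS. A 203 bp peak at chr8:36262358-36262560 lay 522 kb upstream of its TSS in a Tigger3b DNA transposon, and a 376 bp peak at chr8:37110992-37111367 lay 327 kb downstream in a MER51A long terminal repeat. The KCNU1 body between them, of 152 kb, held no peak, and neither peak had the core or the inverted pair. KCNMA1, the large-conductance calcium-activated pore, had no peak in or nearest to its body of 769 kb.

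Auxiliary subunits had 11 peaks next to 7 genes, the most of any class. KCNIP4, a calcium-binding partner of Kv channels, had 3 peaks in intron 2 of 8 over 114 kb of its 1220 kb body, the longest of the KCN genes. They were chr4:21221047-21221262 in an L2a element and chr4:21282802-21283103 and chr4:21334664-21334929, both in L1MB7 elements. The core was in the last of them only. The first and second lay 82.8 and 21.0 kb downstream and the last 30.9 kb upstream of the start site used.

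The 3 KCNMB4 peaks, next to a beta subunit of the large-conductance channel, were all in CNOT2, which encodes a subunit of the CCR4-NOT deadenylase. The first and second, chr12:70306986-70307168 and chr12:70309048-70309220, were in intron 3 of 16 and 1.88 kb apart, the closest neighbours among KCN peaks. The last, chr12:70346308-70346591, was annotated to intron 16 of 16 and overlapped a GENCODE exon at its centre. They lay 59.2, 57.2 and 19.8 kb upstream of the KCNMB4 start, and none held the core or the inverted pair.

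KCNMB3 and KCNIP2 were similar in that their peaks sat in a neighbour. The KCNMB3 peak (279 bp) was in intron 14 of 20 of PIK3CA, a catalytic subunit of phosphoinositide kinase, in a Tigger5 element and 29.0 kb downstream of the KCNMB3 TSS. The KCNIP2 peak (245 bp) was in intron 24 of 25 of ARMH3, 31.4 kb upstream of the KCNIP2 TSS, and held 1 inverted pair.

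The other 3 auxiliary subunits had peaks in their own bodies. KCNAB1, a beta subunit that speeds inactivation of Kv channels, had a 369 bp peak at chr3:156337732-156338100 in intron 1 of 13, 46.9 kb from the TSS, with 1 core and 1 inverted pair. KCNE1, the partner of KCNQ1 in the slow delayed rectifier of heart, had a 182 bp peak with 2 inverted pairs in intron 2 of 3, 11.0 kb from the TSS. KCNE4, which inhibits KCNQ1 when expressed with it, had a 320 bp peak in an L1PA15 element 29.3 kb downstream of the TSS, with neither string. KCNMB2 (571 kb) and KCNIP1 (383 kb) had no peak.

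**Figure D3:**
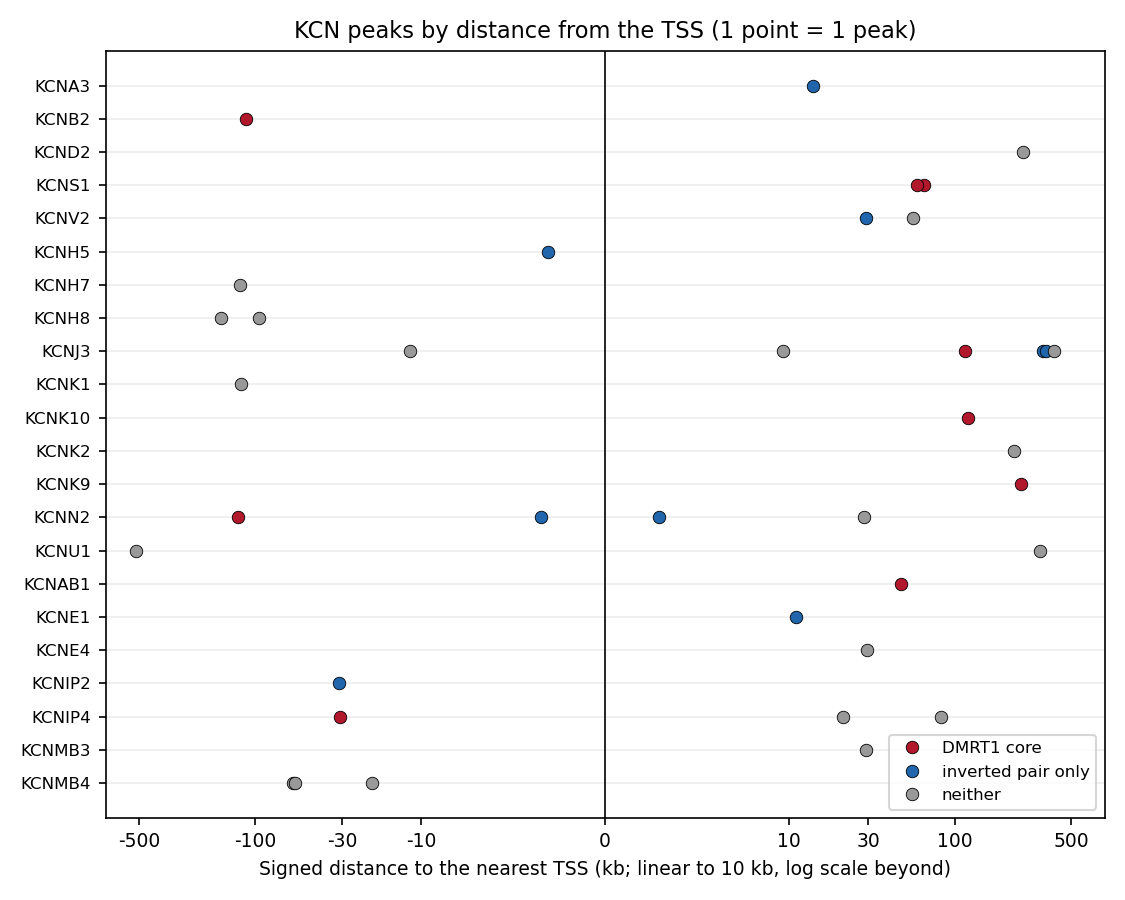
Signed distance in kb of each of the 38 KCN peaks from the TSS the authors assigned (negative is upstream; the axis is linear to 10 kb and logarithmic beyond), by gene in class order. Red points hold the DMRT1 core (9 peaks), blue points the inverted pair without the core (9 peaks) and grey points neither (20 peaks); 4 points lie within 10 kb of a TSS and the KCNU1 pair is the widest apart.

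Position relative to genes was compared with all 5167 peaks next to protein-coding genes, which include the KCN peaks. KCN peaks were intronic in 18 of 38 cases (47.4%, exact interval 31.0 to 64.2), against 57.3% of all, and intergenic in 19 of 38 (50%, interval 33.4 to 66.6), against 36.2%. By the authors' annotation none of the 38 was in a promoter, coding exon, UTR or transcription termination site, and 0 of 38 allows a share of up to 9.25%. The shares of promoters and coding exons among all peaks were 1.43% and 1.47%. An intron of the nearest gene itself held 11 of 38 KCN peaks (28.9%, interval 15.4 to 45.9), against 45.4% of all peaks, and an intron of another gene held 7 of 38 (18.4%, interval 7.74 to 34.3), against 11.9%. The value of all peaks lay inside the KCN interval for the intronic share and for both introns of own and of other genes, and for intergenic peaks as well.

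KCN peaks were at a median of 59.3 kb from the TSS the authors assigned (2.91 to 522 kb), against 39.9 kb for all peaks next to protein-coding genes. Within 10 kb of a TSS there were 4 of 38 KCN peaks (10.5%, interval 2.94 to 24.8), against 18.7%, and beyond 100 kb 15 of 38 (39.5%, interval 24.0 to 56.6), against 26.5%. They were upstream of the TSS in 15 of 38 cases (39.5%), against 36.7%. The median width was 238 bp in KCN peaks and 291 bp in all peaks, and 27 of 38 KCN peaks, against 2542 of 5167, were narrower than the median of the whole list (289 bp). Another peak of the list lay within 10 kb of 6 of 38 KCN peaks (15.8%), against 12.1%, and these 6 were the close pairs of KCNS1, KCNN2 and KCNMB4. Median GC content was 36.6% in KCN peaks and 37.1% in all.

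Assignment to the nearest TSS and presence in the gene itself gave different lists. Of the 38 KCN peaks, 15 lay in the GENCODE body of the assigned gene, 9 only in the body of another protein-coding gene and 14 in none. This split was not counted for all peaks next to protein-coding genes, so it cannot be called particular to KCN genes. Read the other way, the bodies of 13 of 96 KCN genes (13.5%, interval 7.41 to 22.04) held a peak centre, against 13.9% of protein-coding genes. These bodies held 23 peaks over 13.2 Mb, or 1.74 per Mb (Poisson interval 1.10 to 2.61), against 3.22 per Mb over the bodies of all protein-coding genes. The value over all protein-coding gene bodies lay above the KCN interval. Gene lengths were not matched: 35.4% of KCN genes had a body of at least 100 kb, against 18.3% of protein-coding genes. Density among genes of like length was not counted. Peaks within 1 gene are not independent, so the KCN interval is too narrow.

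Of the 23 peaks in KCN bodies, 8 were assigned to another gene, 7 of them to a non-coding one. Over the whole list, only 5167 of 7818 peaks had a protein-coding nearest gene, so such assignment is not particular to KCN genes. The same count was not made for the bodies of all protein-coding genes. KCNQ1, with a body of 404 kb, held none. KCNQ5, KCNT2 and KCNH1 had no nearest peak by the authors' assignment, but their bodies held 2 each. Those of KCNQ5, a subunit of the M-current, were at chr6:72746455-72746919 in intron 1 of 13 and chr6:73041350-73041597 in intron 2 of 13, assigned to KCNQ5-IT1 and MIR4282. Those of KCNT2, a sodium-activated channel, were in introns 23 and 13 of 26 and went to LINC01724 and MIR4735. Those of KCNH1 were in introns 7 and 6 of 10 and went to KCNH1-IT1. A second KCNAB1 peak, chr3:156371916-156372319, held the core and went to the antisense KCNAB1-AS1, and a KCNH7 peak in intron 7 of 15, chr2:162438460-162438799, held the core and went to GCA. The core was in 6 of the 23 body peaks.

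The strings of the sequences shown above were counted in KCN peaks, in all peaks and in flanks. Flanks were 2 stretches of the same width as each peak, with the start shifted by 5 kb to either side. The core was in 9 of 38 KCN peaks (23.7%, exact interval 11.4 to 40.2), against 23.5% of all peaks. Flanks of KCN peaks held it in 2 of 76 (2.63%, interval 0.320 to 9.18), and flanks of all peaks in 5.89%. The KCN peaks thus held the core at about the rate of all peaks next to protein-coding genes, and above these flanks with intervals that did not overlap. Widths were not matched between KCN peaks and all peaks (medians 238 and 291 bp). Flanks shifted by only 1 kb from KCN peaks held it in 9 of 76 (11.8%, interval 5.56 to 21.3), against 6.48% for all peaks, and that interval overlapped the one of the KCN peaks. With this shift the gap to the peak is less than 1 kb, and a peak wider than 1 kb overlaps its flanks. The widest of all peaks was 3984 bp and the widest KCN peak 827 bp. A core with an A or T on each side was in 7 of 38 (18.4%), against 12.3%.

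The inverted pair was in 12 of 38 KCN peaks (31.6%, interval 17.5 to 48.7), against 25.2% of all peaks. It was in 2 of 76 KCN flanks at 5 kb (2.63%) and 5 of 76 at 1 kb (6.58%), against 5.63% and 5.95% of the flanks of all peaks. Core and inverted pair were together in 3 peaks, those of KCNB2, KCNK10 and KCNAB1, and 18 of 38 KCN peaks had 1 or the other. The core and the inverted pair can share letters, since ACA ends 1 and starts the other, but no 2 of these sites overlapped in a KCN peak. Of the 12 core sites, 4 were within 50 bp of the peak centre and 7 within 100 bp (median 84 bp, 2 to 228), and of the 17 inverted pairs 3 were within 50 bp and 14 within 100 bp (median 77 bp, 22 to 359). These positions were not counted for all peaks. At a median width of 238 bp, most letters of a KCN peak lie within 100 bp of its centre, so no centring is read from them.

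Strings of other factors were counted in the same way. The AP-1 string TGACTCA or TGAGTCA was in 4 of 38 KCN peaks (10.5%), against 12.8% of all, and in 6.58% of KCN flanks at 5 kb and 3.95% at 1 kb. The SOX strings CCATTGT and CCTTTGT, with their reverse complements, were in 4 of 38 (10.5%, interval 2.94 to 24.8), against 17.0%. KCN flanks held them in 7.89% at 5 kb (interval 2.95 to 16.4) and 11.8% at 1 kb (interval 5.56 to 21.3). The intervals of the KCN peaks and of both flanks overlapped. The FOX string TGTTTAC or GTAAACA was in 0 of 38, which allows up to 9.25%, against 8.79% of all peaks, and in 1.32% of KCN flanks at 5 kb and 5.26% at 1 kb. The peaks with AP-1 were those of KCNAB1, KCNU1, KCNH8 and KCNIP4, and the peaks with SOX were 2 of KCNJ3 and 1 each of KCNK10 and KCNS1. None of the strings was present in 16 of 38 KCN peaks. A match is a description of letters and not a measured site.

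**Figure D4:**
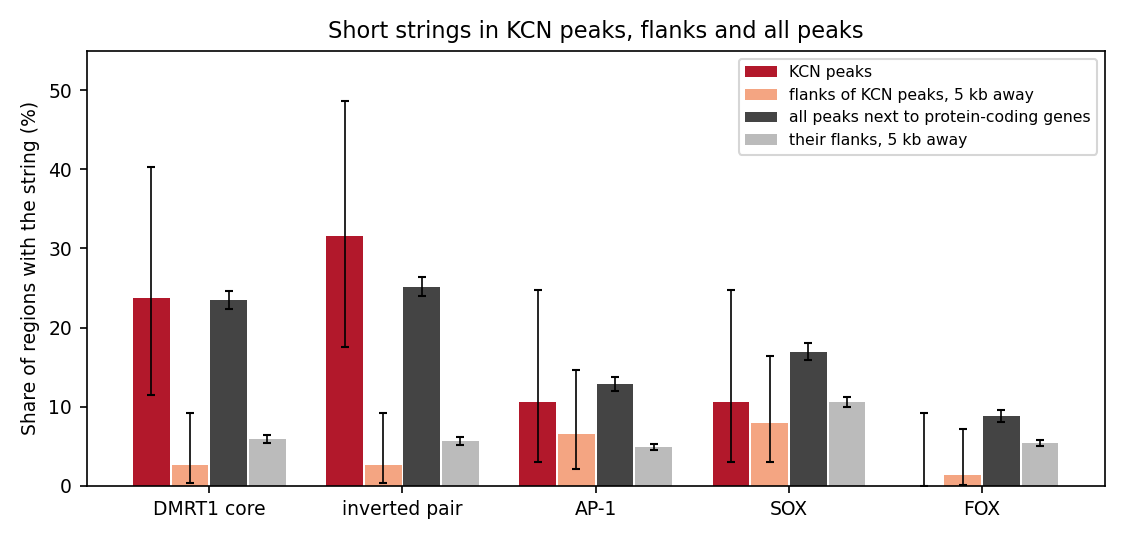
Share in percent of KCN peaks (38), their flanks 5 kb away (76), all peaks next to protein-coding genes (5167) and their flanks that hold each short string on either strand; error bars are exact 95% binomial intervals. The core stood at 23.7% in KCN peaks and 2.63% in their flanks, beside 23.5% and 5.89% for all peaks, and the inverted pair at 31.6% and 2.63%, beside 25.2% and 5.63%.

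Repeat elements covered 17 of 38 KCN peaks by the authors' annotation (44.7%, exact interval 28.6 to 61.7), against 39.2% of all peaks. LINE elements made up 12 of these 17, so 31.6% of KCN peaks (12 of 38, exact interval 17.5 to 48.7), against 21.1% of all. The value of all peaks lay inside this interval. The other 5 were DNA transposons (3) and long terminal repeats (2), and no KCN peak was in a SINE. The 12 LINE peaks fell in 11 subfamilies, of which only L1MB7 occurred more than once, in the 2 KCNIP4 peaks, and Tigger3b occurred next to KCNMB4 and KCNU1. Of the 9 KCN peaks with the core, 4 were in a repeat, those of KCNS1, KCNK10, KCNK9 and KCNIP4.

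Related channel genes gave counts of the same kind. Among 9 partner genes of potassium channels not named KCN, DPP10, an auxiliary subunit of Kv channels, was nearest to 9 peaks, 2 with the core and 6 inside its body of 1403 kb. Its paralogue DPP6, with a body of 1146 kb, had none, nor did the other 7 partners. Sodium channel pores had a peak at 3 of 9 genes, with 2 at SCN1A, and calcium channel pores at 2 of 10. Of all protein-coding genes, 17.2% had a nearest peak (41.2% of those of at least 100 kb and 11.9% of shorter ones). The lists hold few genes, and their differences from KCN genes were not tested.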

How the data were processed

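CUT&RUN was carried out with a DMRT1 antibody (2 libraries) and rabbit IgG (1 library). The authors used leeHom for trimming, Bowtie2 for alignment to GRCh38 (version 2.2.5 in the submitters' processing notes; the study's methods name another) and MACS2 for peak calling, in which duplicates were kept and IgG was the control. They kept peaks common to both replicates at a −log10 q value over 8 and annotated them with HOMER; the sources used here do not say what made a peak common. The threshold and the kept duplicates act on which regions pass. The deposited columns used here are start, end and distance to the nearest TSS in bp, with annotation text; they hold no count, height or score.

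Coordinates were used as 1-based on hg38: centre minus a GENCODE TSS gave the authors' distance exactly for 29 of 38 KCN peaks. Gene bodies are from GENCODE release 44 and symbols from the RefSeq gene table; 19138 protein-coding genes, including all 96 KCN genes, were in both. Strings were sought on both strands with Python 3.11.15, pandas 2.3.3 and pysam 0.24.0, a search tested on simulated data with planted strings. Exact 95% binomial and Poisson intervals (SciPy 1.17.1) cover counting error only, and figures were drawn with matplotlib 3.10.9. No test was run, because 1 common list gives no value per replicate.

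The members, channel classes and other gene lists were chosen with earlier results of these data known, and the 100 kb division of gene length after the values were seen. Every KCN gene with a peak is named, with full detail for genes with at least 2 peaks, peaks with the core and peaks within 10 kb of a TSS or in an exon. Up to 2 genes without a peak are named per class, those with the longest bodies, and from the other lists the genes with at least 2 peaks, of which some are not reported here; the body peaks of KCNAB1 and KCNH7, the gene DPP6 and the regulator KCNRG were named outside this rule. The alternatives tried were assignment by GENCODE, peaks outside repeats, wide peaks, a longer core, a central 200 bp window and closer flanks.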

Additional observations from a re-analysis of the deposited data

How the results depend on the processing

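The number of KCN genes with a nearest peak was 22. It was 27 with the nearest protein-coding TSS in GENCODE, and 17 genes were in both lists. KCNS1, KCNK1 and the auxiliary subunits KCNMB4, KCNMB3 and KCNIP2 were lost, because a TSS of another gene was nearer to each of their peaks. The number was 13 by the gene body that holds the peak centre, of which 10 were among the 22, 13 with peaks outside repeats, and 11 with peaks no narrower than the median. The last 2 values are lower by construction, since fewer peaks enter. The share of KCN flanks with the core was 2.63% at a shift of 5 kb and 11.8% (9 of 76, exact interval 5.56 to 21.3) at a shift of 1 kb. In the 1 kb flanks of all peaks it was 6.48%. The interval of the closer KCN flanks overlapped that of the KCN peaks themselves, and the cause was not tested. The core share of KCN peaks was between 18.4% and 36.4% under its 4 alternatives, the intronic share between 45.5% and 57.9% under its 3, and the median distance 59.2 kb with GENCODE start sites. With 1 common list no replicate could be left out, and no paired analysis was possible because the list holds no value per replicate. Depth per library is unknown here, so a KCN gene without a peak may still have weaker binding below the authors' threshold.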
